A study of Homo sapiens with 51 samples.

Results

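This account is about 12 of the 51 libraries of the series: the transduced libraries of PK45H, an established human pancreatic ductal adenocarcinoma cell line. They were chosen by their labels alone. The quantity of interest was a difference of differences, namely the effect of OVOL2 against mCherry when M2rtTA virus was added, minus the same effect without it. All 4 groups held 3 libraries. Per the labels, the cells of every group received a lentiviral open reading frame at a multiplicity of infection of 2 with 8 µg/ml polybrene, and from the next day puromycin (2.5 µg/ml) together with doxycycline (0.6 µg/ml). The open reading frame was mCherry, a fluorescent protein and the negative control, or OVOL2; a second set of each also received the FUW-M2rtTA virus. RNA was collected after 6 days and 100 ng of it went into PLATE-seq, in which 3′-end cDNA of many wells is barcoded and pooled. The labels give triplicate transductions but no shared day or passage, so the tests measure the spread between these 3 wells. In bulk RNA of this kind, fewer cells of a type and less RNA per cell cannot be told apart.

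OVOL2 is a zinc-finger transcription factor of the OVO family. It is known mainly as a repressor that keeps epithelial cells epithelial, with ZEB1, a driver of epithelial-mesenchymal transition, among the genes it silences. M2rtTA is a reverse tetracycline transactivator: with doxycycline it binds tetracycline-operator promoters and switches on what lies behind them.

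The 12 libraries held 2439323 to 6695312 counts, with 21.89% to 26.03% of counts from mitochondrial transcripts. Without M2rtTA the mCherry libraries held 2439323 to 4437907 counts and the OVOL2 libraries 4193485 to 6051551. With it they held 5332703 to 6695312 and 3776809 to 5018458. Genes detected numbered 16431 to 17218 and 16682 to 17726 without M2rtTA, and 18135 to 18507 and 17840 to 17888 with it. The mitochondrial share was 21.89% to 24.13% and 23.14% to 23.89% without it, and 24.11% to 26.03% and 25.04% to 25.21% with it. Genes that mark untreated PK45H against the other lines stood at a median of 46.4% to 86.6% of their untreated level, and those of KP4 and PANC1 at no more than 8.64% and 5.96% of theirs. Levels are given as CPM, a gene's share of its library's counts after scaling. Effects are on the log2 scale. A standard error (SE), where given, is the size of the effect divided by the square root of its test's F statistic. Adjusted p-values come from edgeR's quasi-likelihood test and cover 13583 genes.

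OVOL2 itself was read at low counts. Its level was 2.24, 0.402 and 1.13 CPM in the mCherry libraries, 1.18, 1.31 and 1.85 with OVOL2, 1.03, 0.563 and 1.75 with mCherry and M2rtTA, and 4.67, 4.72 and 4.32 with OVOL2 and M2rtTA. The last 3 values lay above all others, while the first 3 groups overlapped. The summed counts were 15, 22, 22 and 59 in that order. The OVOL2 effect on its own gene was 0.12 without M2rtTA and 1.98 with it, and the difference of 1.86 (SE 0.74, adjusted p = 0.212) did not pass the threshold. An exact two-sided permutation test gave p = 0.7 without and p = 0.1 with M2rtTA, the latter being the smallest that 3 against 3 libraries allow. The reads are from 3′ ends, and whether they record the viral transcript is not given in the sources used here.

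M2rtTA changed the OVOL2 effect for 217 genes at an adjusted p under 0.05, which is 1.6% of the genes tested. The difference was positive for 114 of them (0.839% of tested genes) and negative for 103 (0.758%). Without M2rtTA the OVOL2 effect was called for 1139 genes (8.39%), of which 486 (3.58%) rose and 653 (4.81%) fell. In the arm with M2rtTA it was called for 2153 (15.9%), with 1012 rises (7.45%) and 1141 falls (8.4%). Among the 217, 126 genes gained an effect, meaning that they were called with M2rtTA only. Another 53 lost it, being called without M2rtTA only. A further 16 reversed, with opposite calls in both arms, 10 kept their direction with a larger effect, 8 kept it with a smaller one, and 4 were called in neither arm. The split between arms is not itself the evidence: of 1561 genes called with M2rtTA only, the difference passed for 126, and of 547 called without it only, for 53.

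**Figure D1:**
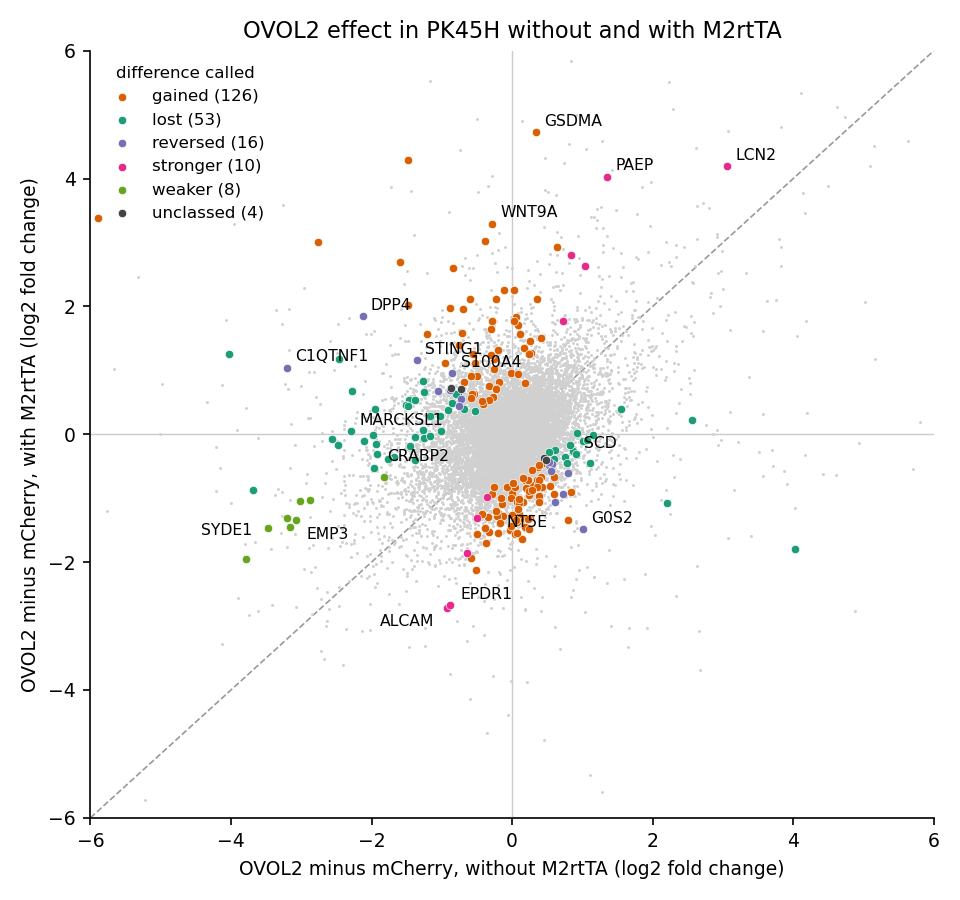
Effect of OVOL2 against mCherry in PK45H without M2rtTA (horizontal) and with it (vertical), both as log2 fold changes; each point is a gene, coloured points are the 217 genes whose difference passed an adjusted p of 0.05, and the dashed line marks equal effects. Most gained genes lie near the vertical axis, most lost genes near the horizontal axis and the reversed genes in the upper left and lower right; 23 genes with larger fitted values, none of them coloured, lie outside the axes.

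The size of the set depended on single libraries. Leaving out any 1 of OVOL2 replicates 1, 2 and 3, mCherry replicate 1, mCherry + M2rtTA replicates 1, 2 and 3 or OVOL2 + M2rtTA replicate 2 brought the count to between 93 and 144, and the other 4 omissions gave 146 to 272. All 217 kept the sign of their difference in each of these 12 omissions, which reuse most of the libraries that selected them.

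For 204 of the 217 genes (94.01%) the change with M2rtTA was larger in size among OVOL2 than among mCherry libraries. With M2rtTA against without, the OVOL2 libraries differed for 1831 genes (13.5% of those tested; 6.27% rose and 7.21% fell) and the mCherry libraries for 4 (0.0294%). The 4 were KIF3B, which rose (0.00736%), and KRT7, ALDH3A1 and EPHB1, which fell (0.0221%); ALDH3A1 and EPHB1 are outside the 217. Of the 217, 206 were called among OVOL2 libraries, 2 among mCherry libraries and 9 in neither comparison. OVOL2 libraries with and without M2rtTA did not overlap for 214 of the 217, against 32.1% of all genes tested. The mCherry libraries did not overlap for 68, against 14.8% of all genes. Both comparisons enter the difference by construction, so these counts describe where it arose.

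**Figure D2:**
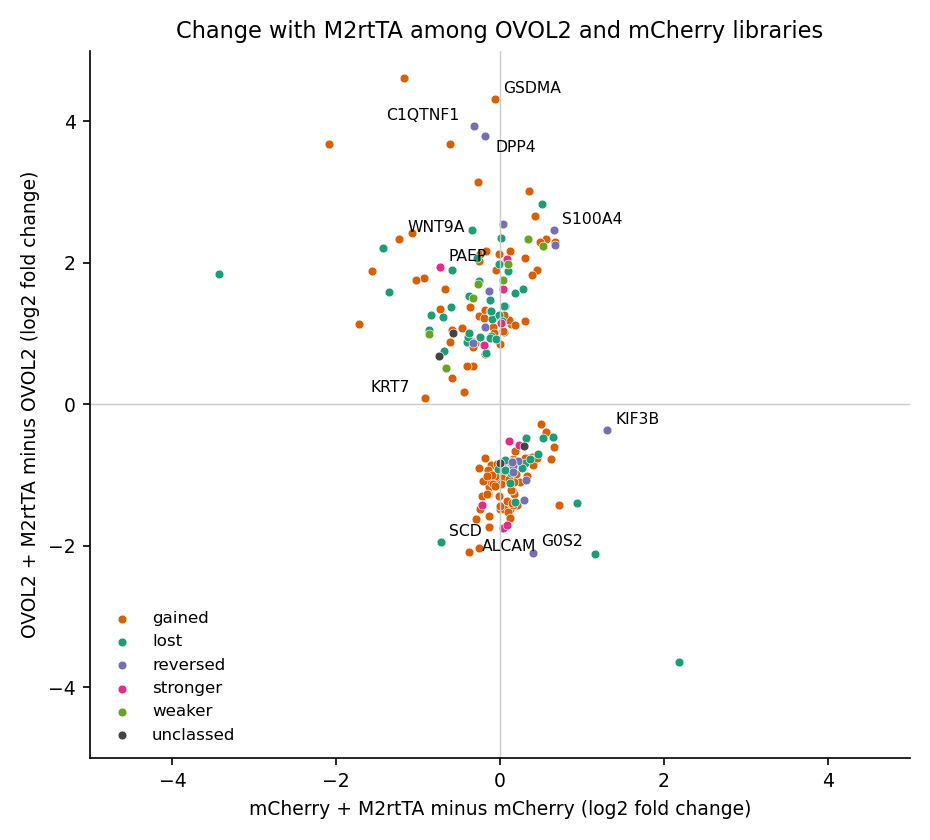
Change with M2rtTA among OVOL2 libraries (vertical) and among mCherry libraries (horizontal), as log2 fold changes, for the 217 genes, coloured by class; 1 gene lies outside the axes. Most points lie near 0 on the horizontal axis, with KRT7 and KIF3B as the called exceptions.

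The reversed genes are described first. Of the 8 that OVOL2 lowered alone and raised with M2rtTA, C1QTNF1, a secreted protein related to C1q and adiponectin, had the smallest p. Its level was 6.96, 8.44 and 9.01 CPM with mCherry, 0.946, 0.821 and 0.8202 with OVOL2, 5.31, 6.196 and 8.01 with mCherry and M2rtTA and 12.6, 14.4 and 13.4 with OVOL2 and M2rtTA. OVOL2 libraries were thus below every mCherry library without M2rtTA and above every one with it, although the low group rested on at most 5 counts a library. Its effect went from -3.21 to 1.04, a difference of 4.25 (SE 0.32, adjusted p = 3.69e-05).

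S100A4 is a calcium-binding protein of motile and mesenchymal cells, long used as a fibroblast marker. It stood at 105, 118 and 141 CPM with mCherry and 65, 69.99 and 66.6 with OVOL2, then at 205, 195 and 172 with mCherry and M2rtTA and 442, 336 and 332 with OVOL2 and M2rtTA. No OVOL2 value overlapped its own control, in opposite directions. The effect was -0.85 and then 0.96, with a difference of 1.81 (SE 0.21, adjusted p = 0.00106); the change with M2rtTA among mCherry libraries was 0.65 (adjusted p = 0.21).

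DPP4, a cell-surface serine protease known as CD26, went from 4.21 ± 0.536 CPM with mCherry to 0.958 ± 0.471 with OVOL2, and from 3.65 ± 0.413 to 13.2 ± 3.71 with M2rtTA (mean ± SD, n = 3 here and below). The effects were -2.13 and 1.85, and the difference was 3.98 (SE 0.52, adjusted p = 0.00286). At most 7 counts a library stood behind the low group. STING1, the endoplasmic reticulum adaptor of cytosolic DNA sensing, went from 10.7 ± 3.85 to 4.21 ± 0.737 without M2rtTA and from 11.03 ± 1.87 to 24.5 ± 3.06 with it, a difference of 2.51 (SE 0.37, adjusted p = 0.00414). FSCN1, the actin-bundling protein of filopodia, moved from 131 ± 38.3 to 63.1 ± 7.28 and from 119.6 ± 10.5 to 192 ± 35.8 (difference 1.74, SE 0.28, adjusted p = 0.00685). PRAF2, a small membrane protein of the secretory pathway, fell by 0.72 alone and rose by 0.56 with M2rtTA. ECM1, an extracellular matrix glycoprotein, had effects of -0.89 and 0.69; it and DVL1 are outside the naming rule and were chosen after their values were seen.

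The other 8 reversed genes rose with OVOL2 alone and fell with M2rtTA. G0S2, an inhibitor of the triglyceride lipase ATGL, stood at 28.8, 24.1 and 22.98 CPM with mCherry, 57.2, 44.7 and 51.1 with OVOL2, 29.4, 34.7 and 35.99 with mCherry and M2rtTA and 15.4, 9.701 and 10.3 with OVOL2 and M2rtTA. The OVOL2 libraries were the highest of the 4 groups without M2rtTA and the lowest with it. Its effects were 1.01 and -1.49, a difference of -2.50 (SE 0.28, adjusted p = 0.000883). LRCH4, a leucine-rich repeat protein, behaved likewise, going from 22.97 ± 3.65 to 37.9 ± 2.21 and from 28.1 ± 2.06 to 14.8 ± 0.294 (difference -1.65, SE 0.20, adjusted p = 0.00134).

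KIF3B, a motor subunit of kinesin-2, was called for a change in its controls. Its level was 35.3, 27.7 and 34.7 CPM with mCherry, 52.2, 44.2 and 53.3 with OVOL2, 91.2, 84.5 and 66 with mCherry and M2rtTA and 42.6, 36.2 and 37.5 with OVOL2 and M2rtTA. The change among OVOL2 libraries was -0.36 (adjusted p = 0.149), whereas mCherry libraries were higher with M2rtTA by 1.30 (adjusted p = 0.006). The effect turned from 0.61 to -1.05; the difference of -1.67 (SE 0.23, adjusted p = 0.00414) lost its call in a fit of all 51 libraries (adjusted p = 0.196, the highest of its alternatives).

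The other 5 had effects of 0.52 to 0.79 alone and of -0.60 to -0.44 with M2rtTA. They were EXOSC4, a core subunit of the RNA exosome; ZNF655, a zinc-finger protein; GRPEL1, the nucleotide exchange factor of mitochondrial HSP70; DVL1, a transducer of Wnt signals; and STC2, a secreted glycoprotein of the stress response. STC2, for example, went from 16.1 ± 4.17 to 28.1 ± 1.33 CPM and from 20.3 ± 3.12 to 13.3 ± 2.04, with a difference of -1.39 (SE 0.27, adjusted p = 0.0189). Its call was lost without mCherry replicate 1, OVOL2 replicate 3 or mCherry + M2rtTA replicate 3, and that of EXOSC4 when libraries were thinned to 1 depth.

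**Figure D3:**
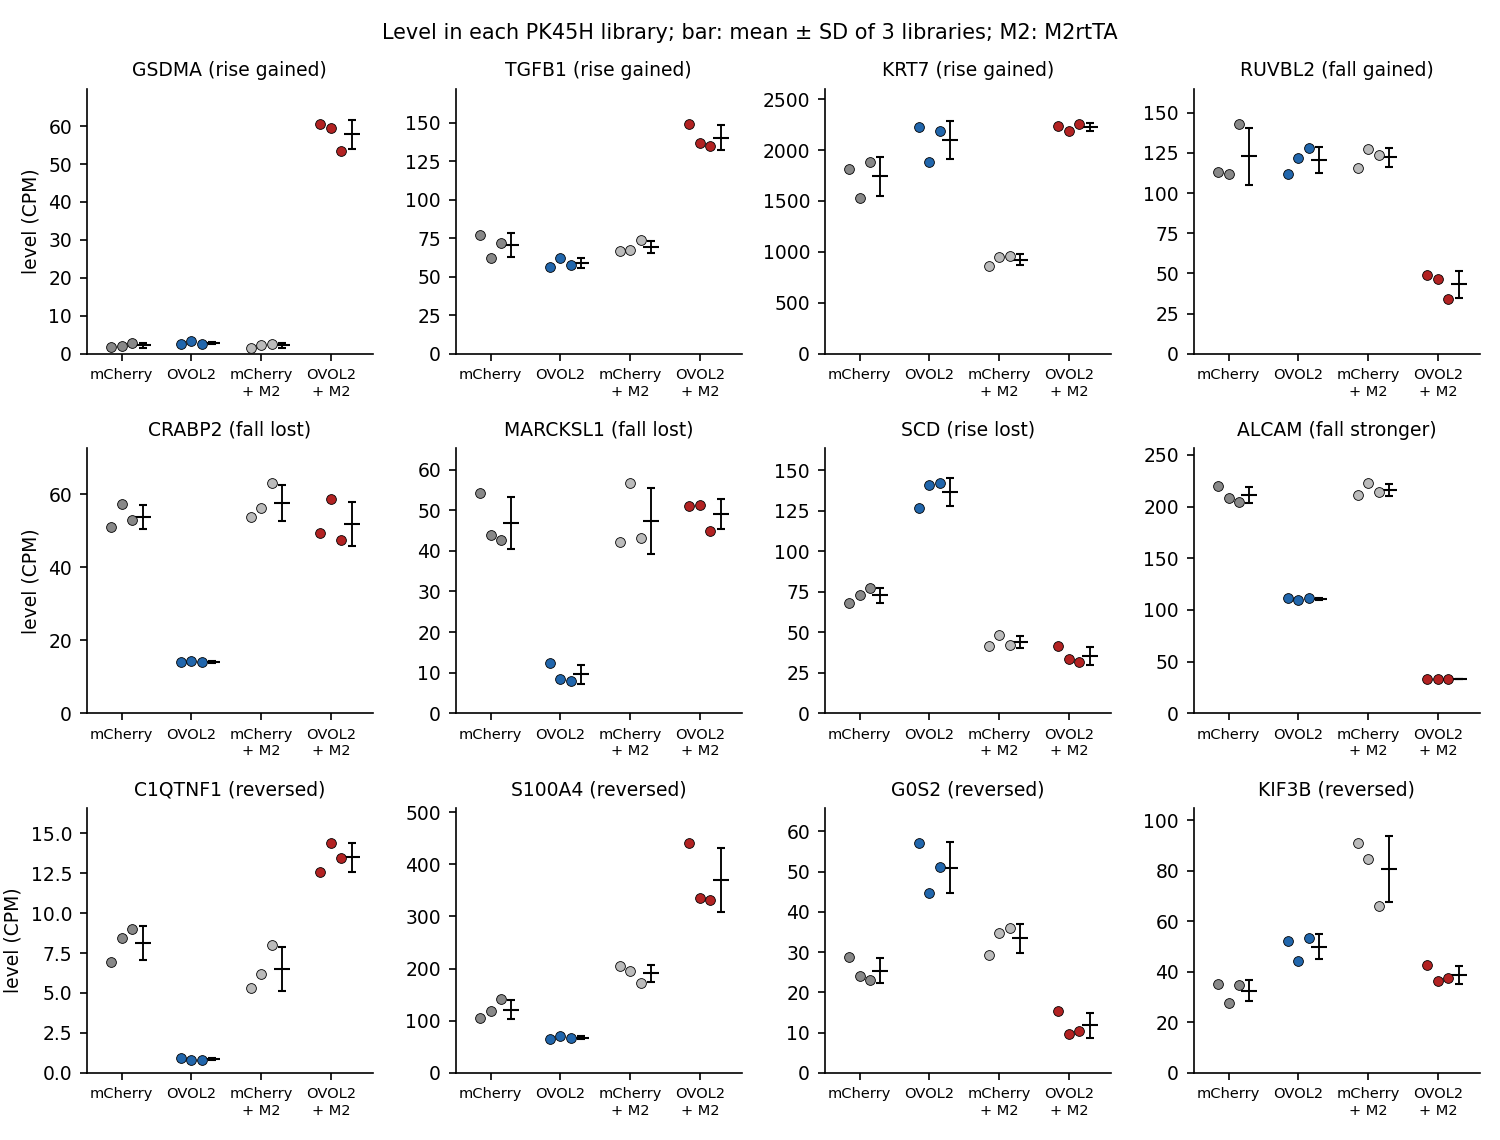
Level in CPM of 12 genes (linear axes from 0) in the 3 libraries of each PK45H group; points are libraries and bars to their right the mean ± SD, with M2 for M2rtTA. In GSDMA, TGFB1 and RUVBL2 the OVOL2 + M2rtTA libraries stand alone, in CRABP2 and MARCKSL1 the OVOL2 libraries stand alone, and in KRT7 the lowest group is mCherry + M2rtTA.

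A promoter window was printed for the reversed genes that hold the core letters bound by OVO-family factors, CCGTTA, read on both strands in the 250 bases before the RefSeq start (GRCh38.p14); ACTG1, which gained a fall, is added for comparison. The windows run 5′ to 3′ on the gene's strand, with the match in capitals; TAACGG is the same motif on the other strand. Of the 217 genes, 175 had a promoter in the table.
S100A4, chr1:153545968-153546003, minus strand: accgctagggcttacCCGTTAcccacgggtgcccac
PRAF2, chrX:49074024-49074059, minus strand: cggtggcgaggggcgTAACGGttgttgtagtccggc
ZNF655, chr7:99558392-99558425, plus strand: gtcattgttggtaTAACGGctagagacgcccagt
ACTG1, chr17:81512805-81512840, minus strand: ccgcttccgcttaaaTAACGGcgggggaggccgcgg
The matches began 182, 42, 237 and 26 bases before the start. The motif was present in 3.28% of the 10693 promoters of tested genes, in 5.95% of 521 genes lower with OVOL2 alone and in 2.45% of 368 genes higher. Among changed genes it was found in the 3 reversed genes above, of 10 with a promoter, in 1 of 59 that gained a fall (ACTG1), in 2 of 46 that gained a rise (SLC6A20 and LPCAT3) and in 1 of 29 whose fall was lost (MRPL28). A match is a string of letters and not a bound site. The E-box CAGGTG, the letters read by ZEB and SNAI repressors, was in 15.7% of all promoters, in 26.4% of those higher with OVOL2 alone and in 22.1% of those higher with M2rtTA, but in 6.78% of the 59 that gained a fall.

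Of the 55 genes that gained a rise, GSDMA had the smallest p. It encodes gasdermin A, a pore-forming protein of squamous epithelium and skin. Its level was 1.74, 2.01 and 2.93 CPM with mCherry, 2.6, 3.29 and 2.67 with OVOL2, 1.48, 2.44 and 2.62 with mCherry and M2rtTA and 60.7, 59.5 and 53.5 with OVOL2 and M2rtTA. The first 9 values lay together near the detection level and the last 3 far above them. The OVOL2 effect went from 0.34 to 4.72, a difference of 4.38 (SE 0.40, adjusted p = 0.000131). Its call held in every alternative run.

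TGFB1, the growth factor best known for inducing epithelial-mesenchymal transition and matrix synthesis, showed the same shape at a higher level. It stood at 77.3, 62.3 and 72.1 CPM with mCherry, 56.5, 62.4 and 57.8 with OVOL2, 66.99, 67.4 and 73.6 with mCherry and M2rtTA and 149, 137 and 134 with OVOL2 and M2rtTA, so that only the last group left the range of the others. The difference was 1.28 (SE 0.18, adjusted p = 0.00414). PPDPF, a factor named for pancreatic progenitor differentiation, went from 2090 ± 174 to 4067 ± 436 CPM with M2rtTA against 2023 ± 62.5 and 1999 ± 48.6 without (difference 0.98, SE 0.13, adjusted p = 0.00414). WNT9A, a Wnt ligand, rose by 3.30 with M2rtTA (difference 3.58, SE 0.52, adjusted p = 0.00414), and SLC6A20, a proline transporter, by 2.26 (difference 2.24, SE 0.33, adjusted p = 0.00414). IL11, a cytokine of the IL-6 family that TGF-beta is known to induce, was chosen after its values were seen. It went from 3.13 ± 1.22 to 25.4 ± 2.38 CPM with M2rtTA and from 3.96 ± 2.15 to 2.88 ± 0.912 without.

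KRT7, a keratin of ductal epithelium, was called as a gained rise, but on the control side. Its level was 1813, 1525 and 1883 CPM with mCherry, 2230, 1884 and 2182 with OVOL2, 860.1, 946 and 959 with mCherry and M2rtTA and 2233, 2186 and 2260 with OVOL2 and M2rtTA. The mCherry + M2rtTA libraries were the lowest, and both OVOL2 groups overlapped. The change with M2rtTA was -0.92 among mCherry libraries (adjusted p = 0.00537) and 0.09 among OVOL2 libraries (adjusted p = 0.626). The difference of 1.00 (SE 0.14, adjusted p = 0.00414) was lost in a fit of all 51 libraries (adjusted p = 0.102, the highest of its alternatives).

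The fall was gained by 71 genes. RUVBL2, an ATPase of chromatin remodelling and of the R2TP chaperone, stood at 113, 112 and 143 CPM with mCherry, 112, 122 and 128 with OVOL2, 116, 128 and 124 with mCherry and M2rtTA and 49.1, 46.4 and 33.9 with OVOL2 and M2rtTA. Only the last group lay apart, and the difference was -1.48 (SE 0.21, adjusted p = 0.00414). EIF4EBP1, the repressor of cap-dependent translation, went from 84.1 ± 2.48 to 30.9 ± 4.995 CPM with M2rtTA (difference -1.43, SE 0.21, adjusted p = 0.00414). NOP10, a protein of the ribonucleoprotein that pseudouridylates ribosomal RNA, went from 99.6 ± 8.78 to 38.4 ± 5.25 (difference -1.45, SE 0.21, adjusted p = 0.00414), and MRPL24, of the large mitochondrial ribosomal subunit, from 153 ± 10.1 to 64.6 ± 8.38 (difference -1.29, SE 0.18, adjusted p = 0.00414). ACTG1, cytoplasmic gamma-actin, fell by 0.71 with M2rtTA and had an effect of 0.18 without. CBWD2 changed by -1.45 with M2rtTA, but it has near-identical copies that can share its reads. The effects of these 6 genes without M2rtTA lay between -0.03 and 0.18.

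The next 3 groups were picked out after the values had been seen, so their counts describe them and support nothing. Of the 9 chaperonin (CCT) subunits, which fold actin and tubulin, 6 were lower with M2rtTA, against 8.4% of all genes. Without it 0 were lower, against 4.81%. The median effect of the 9 was -0.60 with M2rtTA and -0.02 without. The difference passed for CCT4, CCT5 and CCT7 (33.3% against 1.6% of all genes). The median difference of the 9 was -0.65 against 0.01 for all genes. CCT5, the most abundant, averaged 946.6 CPM with OVOL2 and 419.8 with OVOL2 and M2rtTA, against 1082 and 988.5 in the controls. The mitochondrial chaperonin HSPD1 and its partner HSPE1 are outside the naming rule and were chosen after their values were seen. Between the OVOL2 groups HSPD1 went from 441 ± 26.8 to 171 ± 6.86 CPM and HSPE1 from 869.6 ± 133 to 476 ± 46.99. In the mCherry libraries without M2rtTA HSPD1 stood at 196, 401 and 415, so 1 control library lay near the low group. HSPE1 stood there at 704.6, 620.1 and 688.6. Of 78 proteins of the mitochondrial ribosome, 21 were lower and 1 higher with M2rtTA, against 8.4% and 7.45% of all genes. Without it 2 were lower, against 4.81%. The difference passed for MRPL24, MRPL41 and MRPS34 downward and MRPL28 upward (5.13% against 1.6% of all genes). The median difference of the 78 was -0.40.

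MHC class I genes, which present peptides to T cells, formed the group with the opposite sign. All 6 tested members were higher in OVOL2 libraries with M2rtTA and 1 without, against 7.45% and 3.58% of all genes. The difference passed for HLA-B and HLA-C, against 1.6% of all genes. HLA-C averaged 268.5 CPM with mCherry, 357.9 with OVOL2, 288.9 with mCherry and M2rtTA and 820.0 with OVOL2 and M2rtTA. These loci are near-identical in part, so that reads may be shared between them. B2M, their light chain, had a difference of 0.82 (SE 0.22, adjusted p = 0.0822), short of the threshold. Of the interferon-induced list 1 of 50 passed (PARP14, 2% against 1.6% of all genes), and the median difference was 0.13. With M2rtTA 7 were higher and 1 lower, against 7.45% and 8.4% of all genes. Without it 4 were higher and 2 lower, against 3.58% and 4.81%.

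Genes whose fall was lost (36) are those called lower with OVOL2 alone and not called with M2rtTA. A missing call does not mean that no fall remained. CRABP2, which carries retinoic acid to its nuclear receptor, stood at 50.9, 57.5 and 52.9 CPM with mCherry, 13.9, 14.3 and 13.9 with OVOL2, 53.7, 56.1 and 63.1 with mCherry and M2rtTA and 49.5, 58.7 and 47.5 with OVOL2 and M2rtTA. Only the OVOL2 libraries without M2rtTA left the common range. The effect was -1.93 alone and -0.15 with M2rtTA, a difference of 1.78 (SE 0.19, adjusted p = 0.000538). MARCKSL1, an actin-regulating substrate of protein kinase C, had levels of 54.2, 43.8 and 42.6 with mCherry, 12.3, 8.54 and 7.997 with OVOL2, 42.2, 56.7 and 43.3 with mCherry and M2rtTA and 50.9, 51.4 and 44.9 with OVOL2 and M2rtTA. It too was low in 1 group only, with a difference of 2.34 (SE 0.26, adjusted p = 0.000883).

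ARPC1B, a subunit of the actin-branching Arp2/3 complex, went from 72.3 ± 13.2 to 26.1 ± 2.79 CPM without M2rtTA and from 60.3 ± 7.28 to 87.3 ± 7.66 with it (difference 2.00, SE 0.27, adjusted p = 0.00366). DEGS1, the desaturase that completes ceramide, went from 49.1 ± 3.69 to 13 ± 3.78 and from 45.05 ± 0.824 to 36.2 ± 0.916 (difference 1.61, SE 0.24, adjusted p = 0.00414). PARP14, a mono-ADP-ribosyltransferase, had effects of -1.51 and 0.46. GOLGA8B, a golgin with near-identical copies, had effects of -1.97 and -0.01. LTBP2, a matrix protein related to the binders of latent TGF-beta, had -1.17 and 0.28. Each of these differences passed, that of LTBP2 not in 8 of the 12 omissions of a library. LGALS1, galectin-1, was chosen after its values were seen as the most abundant of the group. It averaged 1756 CPM with mCherry and 670.8 with OVOL2, but 2138 and 2079 with M2rtTA.

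The rise was lost for 17 genes. SCD, the desaturase that makes oleate, stood at 68.1, 72.7 and 77.5 CPM with mCherry, 127, 141 and 142 with OVOL2, 41.5, 48.4 and 42.4 with mCherry and M2rtTA and 41.4, 33.3 and 31.4 with OVOL2 and M2rtTA. OVOL2 libraries were the highest of the 4 groups without M2rtTA and lay just below their controls, without overlap, with it, where the effect of -0.32 was not called. The difference was -1.22 (SE 0.24, adjusted p = 0.0228), lost in 6 of the 12 omissions of a library and in the thinned libraries. ARHGDIB went from 168 ± 12.5 to 284 ± 10.7 CPM without M2rtTA and from 262 ± 7.19 to 205 ± 32.5 with it; the change with M2rtTA among its mCherry libraries was 0.64 (adjusted p = 0.147). The difference of -1.11 (SE 0.18, adjusted p = 0.00637) was lost in the fit of 51 libraries (adjusted p = 0.113, the highest of its alternatives). RIPK2, the kinase of NOD receptor signalling, went from 23.9 ± 4.55 to 43.4 ± 1.89 and from 29.2 ± 0.545 to 24.4 ± 0.684 (difference -1.13, SE 0.20, adjusted p = 0.0135). HSPH1, a cytosolic HSP110 chaperone, had effects of 0.78 and -0.45, and CHMP2B, a subunit of ESCRT-III, of 1.01 and -0.10. POLR2G, an RNA polymerase II subunit, had 0.60 and -0.25, and DSG2, a desmosomal cadherin, 1.06 and -0.10. The differences of CHMP2B, POLR2G and DSG2 passed here but not in a fit of the 12 libraries alone, and were lost in 6 or 7 of the 12 omissions; that of HSPH1 was lost without OVOL2 replicate 3.

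In the genes that kept their direction, ALCAM, an adhesion molecule known as CD166, had the smallest p. Its level was 220.1, 209 and 205 CPM with mCherry, 111, 109.7 and 112 with OVOL2, 211, 223 and 214 with mCherry and M2rtTA and 32.9, 33.03 and 33.1 with OVOL2 and M2rtTA. OVOL2 lowered it in both arms without overlap, by 0.93 alone and by 2.71 with M2rtTA on the log2 scale (difference -1.78, SE 0.15, adjusted p = 0.000114). EPDR1, a secreted lysosomal lipid-binding protein, went the same way, from 91.5 ± 6.93 to 49.5 ± 3.74 and from 96.7 ± 0.386 to 15.2 ± 2.63 CPM (difference -1.79, SE 0.21, adjusted p = 0.00106). NFE2L3, a CNC-type transcription factor, MYL12A, a myosin regulatory light chain, and GAPDH, of glycolysis, also fell in both arms and more with M2rtTA. The differences of MYL12A and GAPDH were lost in 10 and 11 of the 12 omissions of a library, and that of NFE2L3 without mCherry + M2rtTA replicate 1 or OVOL2 replicate 1.

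Another 5 genes rose in both arms and more with M2rtTA. PADI2, which converts arginine to citrulline, stood at 11.4, 14.5 and 8.56 CPM with mCherry, 22.9, 19.4 and 18.5 with OVOL2, 14.2, 10.9 and 10.8 with mCherry and M2rtTA and 82.2, 86.5 and 83.8 with OVOL2 and M2rtTA. The 2 control groups overlapped, and the OVOL2 groups lay above them in 2 steps (difference 1.98, SE 0.28, adjusted p = 0.00414). PAEP, the lipocalin glycodelin, had effects of 1.35 and 4.03. LCN2, the lipocalin that binds bacterial siderophores, went from 10.3 ± 0.956 to 86.2 ± 1.18 and from 10.4 ± 0.586 to 190.4 ± 29.5 CPM, and complement C3 from 44.6 ± 5.09 to 73.8 ± 4.84 and from 38.9 ± 3.67 to 132 ± 14.8. Their differences were 1.13 (SE 0.24, adjusted p = 0.0361) and 1.04 (SE 0.19, adjusted p = 0.0159); that of LCN2 was lost in 11 of the 12 omissions of a library and that of C3 without OVOL2 replicate 1.

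The 8 weaker genes were all falls that became smaller. EMP3, a membrane glycoprotein of the PMP22 family, stood at 186, 175 and 261 CPM with mCherry, 25.8, 29.4 and 18.9 with OVOL2, 214, 217 and 208 with mCherry and M2rtTA and 78.95, 78.1 and 94.6 with OVOL2 and M2rtTA. Both OVOL2 groups lay below both control groups, and the one with M2rtTA lay between. The difference was 1.73 (SE 0.25, adjusted p = 0.00414). PLAT, tissue plasminogen activator, had effects of -3.17 and -1.45; SYDE1 -3.47 and -1.47; CRAT, carnitine acetyltransferase, -3.01 and -1.05; and LIX1L, an RNA-binding protein of the mesenchymal list, -3.20 and -1.30. The call of CRAT was lost in the thinned libraries (adjusted p = 0.0861, the highest of its alternatives). In 4 genes the difference passed although neither arm did: CIITA, the transactivator of MHC class II genes (1.59, SE 0.36, adjusted p = 0.0428), HMGA2-AS1 (1.43, SE 0.33, adjusted p = 0.0475), CLNS1A, a chaperone of spliceosomal ribonucleoproteins (-0.83, SE 0.19, adjusted p = 0.047), and DDX47, a ribosome biogenesis helicase (-0.88, SE 0.20, adjusted p = 0.0475). These 4 calls were each lost in 10 to 12 of the 12 omissions. HMGA2-AS1 is antisense to HMGA2, and reads of the pair cannot be told apart where counting ignores strand.

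The epithelial and mesenchymal genes that OVOL2 is known for were read as lists. No difference was called by edgeR for the 36 epithelial genes tested, with 4 at an unadjusted p under 0.05, against 17.6% of all genes, and 1 called by DESeq2. Each arm on its own had 16 of them called higher, where 3.58% of all genes were higher without M2rtTA and 7.45% with it. The median effect was 1.31 without and 1.18 with M2rtTA. CDH1, E-cadherin, went from 4.64 ± 1.32 to 35.5 ± 6.82 CPM and from 4.48 ± 0.646 to 25.7 ± 2.55, with a difference of -0.41 (SE 0.40, adjusted p = 0.637). EPCAM, an epithelial adhesion molecule, had effects of 1.80 and 1.84, a difference of 0.03 (SE 0.23, adjusted p = 0.959) whose sign changed between alternatives. ESRP1, an epithelial splicing factor, went from 2.12 to 1.02, a difference of -1.10 (SE 0.58, adjusted p = 0.339).

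Of 35 mesenchymal genes, 16 were lower in each arm and 1, COL1A1, was higher with M2rtTA. Of all genes 4.81% were lower without M2rtTA, and 8.4% were lower and 7.45% higher with it. The difference was positive for 25 of the 35 and passed for EMP3, LIX1L and COL1A1 upward and CAV2 downward (11.4% against 1.6% of all genes). The median effect was -0.68 without and -0.48 with M2rtTA. VIM, vimentin, stood at 207, 261 and 210.2 CPM with mCherry, 76.6, 102 and 91.7 with OVOL2, 228, 247 and 241 with mCherry and M2rtTA and 168, 162 and 204 with OVOL2 and M2rtTA. Its OVOL2 libraries were below their controls in both arms, but the difference of 0.90 (SE 0.25, adjusted p = 0.0869) missed the threshold, and passed it by DESeq2 and in the fit of 51 libraries. ZEB1 went from -2.96 to -2.11 with a difference of 0.84 (SE 0.47, adjusted p = 0.372). CAV2, a caveolin, had effects of 0.38 and -0.48, and its call was lost in 11 of the 12 omissions.

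COL1A1, a chain of type I collagen, stood at 6.96, 3.62 and 5.86 CPM with mCherry, 8.27, 4.11 and 3.49 with OVOL2, 5.02, 4.88 and 4.37 with mCherry and M2rtTA and 20.1, 23.9 and 24.5 with OVOL2 and M2rtTA. Only the last group was apart, with a difference of 2.37 (SE 0.43, adjusted p = 0.0133) that was lost without mCherry replicate 1 and in the thinned libraries. It is also a fibroblast marker. The 8 fibroblast markers summed to 31.48 to 38.11 CPM in OVOL2 + M2rtTA libraries and to 9.019 to 16.5 CPM in the other groups. This was not particular to PK45H. In KP4 the sum was 50.99 to 58.22 CPM in OVOL2 + M2rtTA libraries and 22.81 to 30.97 in the other transduced libraries. In PANC1 it was 54.26 to 66.86 and 22.81 to 39.84. Of the 4 that could be tested 3 had a positive difference, with a median of 1.57, and 1 passed (COL1A1). A gene of few counts can pass the low-count filter through 1 group where it is high, so this median supports nothing. The highest count in any of the 12 libraries was 102 for COL1A1, 28 for COL1A2, 23 for DCN, 13 for PDGFRA, 12 for COL3A1, 7 for FAP, 5 for PDGFRB and 1 for LUM. Whether other cells had a part in this result was not tested.

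**Figure D4:**
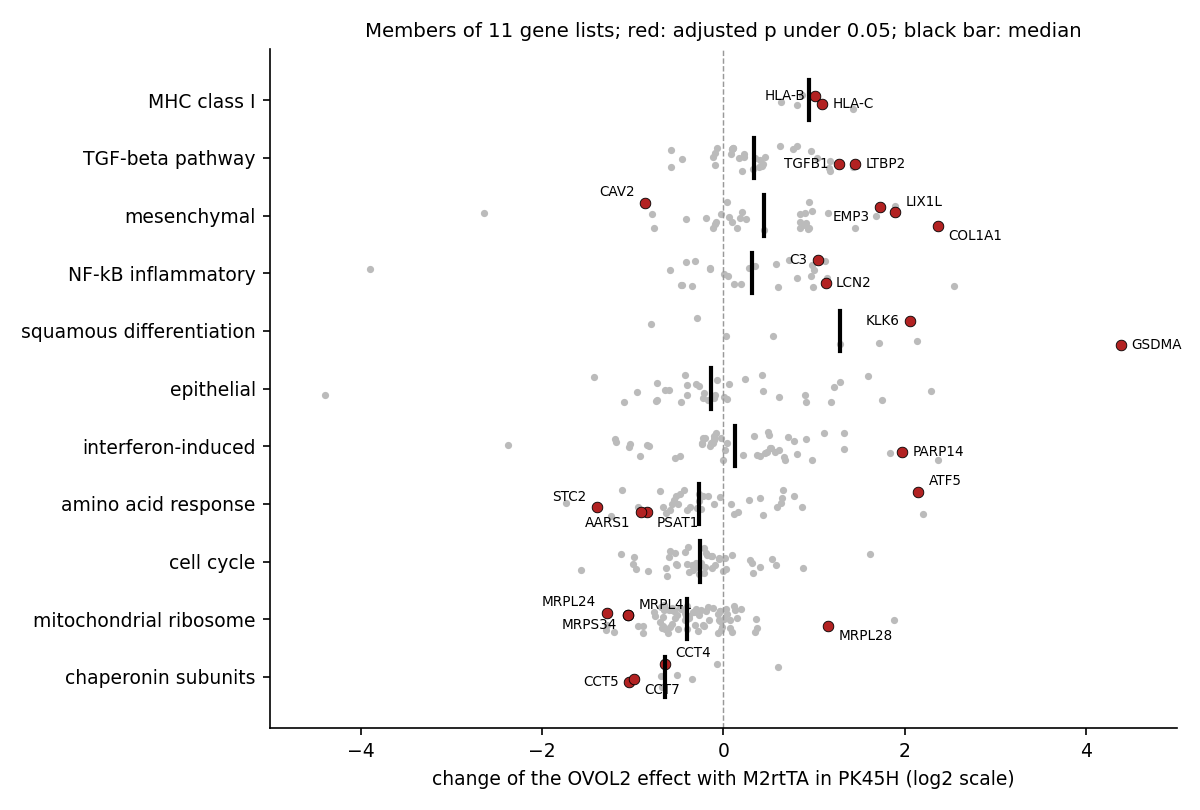
Change of the OVOL2 effect with M2rtTA (horizontal, log2 scale) for each tested member of 11 gene lists; red points passed an adjusted p of 0.05, vertical jitter carries no value, and black bars are list medians. The MHC class I, chaperonin and mitochondrial ribosome lists were chosen after values were seen; the squamous bar rests on 9 genes.

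The other pathway lists are to be read against the 1.6% of all genes whose difference passed and the 6910 of 13583 whose difference was above 0. Of 32 squamous differentiation genes present in the counts, 9 passed the low-count filter and could be tested. GSDMA and KLK6, a secreted serine protease, passed (22.2% of the 9), with a median difference of 1.29. Genes of few counts can pass that filter through 1 group where they are high, so the median supports nothing. KLK6 went from 11.6 ± 4.11 to 39.98 ± 4.44 CPM with M2rtTA (difference 2.06, SE 0.43, adjusted p = 0.0332), a call lost in 8 of the 12 omissions. Of 34 TGF-beta pathway genes, TGFB1 and LTBP2 passed upward (5.88%), the latter not in 8 of the 12 omissions of a library; 27 had a positive difference, and the median was 0.34. Of 28 NF-kB inflammatory genes LCN2 and C3 passed upward (7.14%), with a median of 0.31. In the amino acid response list, 4 of 41 passed (9.76%), 1 upward and 3 downward. ATF5, a transcription factor of that response, gained a rise (2.15, SE 0.35, adjusted p = 0.00743), while AARS1, the alanyl-tRNA synthetase (-0.91, SE 0.20, adjusted p = 0.0358), PSAT1, of serine synthesis (-0.85, SE 0.20, adjusted p = 0.0475), and STC2 had negative differences. Those of AARS1 and PSAT1 were lost in 12 and 11 omissions.

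No cell cycle gene of 48 was called by edgeR for the difference, with 8 at an unadjusted p under 0.05 and 5 called by DESeq2, all 5 lower. In that list 9 genes were lower with OVOL2 alone and 24 with M2rtTA, where 4.81% and 8.4% of all genes were lower. Of 35 sterol and lipid genes 8.57% passed, against 1.6% of all genes. Among them TM7SF2, a sterol reductase (1.78, SE 0.39, adjusted p = 0.0369), passed upward and SCD downward. Of 17 desmosome and keratin genes KRT7 passed upward and DSG2 downward (11.8%). Of 35 hypoxia and glycolysis genes 1 passed in each direction (5.71%). In 4 further lists 1 gene each passed, a share of 3.85% to 4.35% against 1.6% of all genes, too near that background to describe the lists. NT5E, the ecto-5′-nucleotidase CD73, was the 1 gene of 24 YAP and TEAD targets that passed (-1.34, SE 0.21, adjusted p = 0.00615). SPINK4, a goblet-cell protease inhibitor, was the 1 of 23 gastrointestinal genes (2.28, SE 0.39, adjusted p = 0.00957), PLEC, the cytolinker plectin, the 1 of 26 integrin and laminin genes (0.62, SE 0.14, adjusted p = 0.0464), and MANF, an endoplasmic reticulum stress factor, the 1 of 24 ER stress genes (-0.99, SE 0.23, adjusted p = 0.0485). The calls of TM7SF2, PLEC and MANF were lost in 10, 12 and 12 of the 12 omissions, and that of SPINK4 in the fit of 51 libraries (adjusted p = 0.0728, the highest of its alternatives). The lists of p53 targets, NRF2 genes, MAPK feedback and the mitochondrial genome had none, with 4 of 21, 12 of 34, 9 of 31 and 1 of 13 at an unadjusted p under 0.05 and 0, 4, 2 and 0 by DESeq2. Ductal carcinoma markers summed to 5271 to 5333 CPM in OVOL2 + M2rtTA libraries, 4567 to 4986 with OVOL2, 2813 to 2999 with mCherry and 1946 to 2122 with mCherry and M2rtTA.

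The same difference was measured in KP4 and PANC1, 2 other pancreatic lines with controls of their own. Of the falls gained with M2rtTA, 70 could be tested in KP4. There, 65 had a negative difference and 22 were called, with a median of -0.79 against -1.14 in PK45H and -0.01 over all genes in KP4. In PANC1 the median was -0.39, and 1 was called (HSPD1). RUVBL2, for example, had -1.52 in PK45H, -1.34 in KP4 and -0.63 in PANC1 in the joint fit, and EIF4EBP1 -1.47, -1.37 and -0.42. In all, 26 genes were called in both PK45H and KP4, 25 with the same sign, which is 12.5% of those of PK45H and 13.6% of those of KP4, against 1.43% of all genes in KP4.

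For the lost falls the median difference was 1.53 in PK45H, 0.34 in KP4 and 0.04 in PANC1, and 25 and 18 of the 35 tested in those lines were positive. The gained rises had a positive difference for 42 of 51 tested in KP4 and 28 of 53 in PANC1. Their medians there were 0.64 and 0.10, against 1.63 in PK45H, and 2 and 0 were called. Among reversed genes 6 of 7 with a positive and 6 of 8 with a negative difference kept that sign in each line. Whether PK45H differs was tested directly, and its difference departed from the mean of KP4 and PANC1 for 36 genes (0.241% of 14943), 19 of them among the 217. MARCKSL1 led these, with 2.30 in PK45H, -0.33 in KP4 and -0.01 in PANC1, a gap of 2.47 (SE 0.27, adjusted p = 9.15e-07). CRABP2 had 1.74, -0.36 and -0.48 (gap 2.15, SE 0.26, adjusted p = 5.34e-06), and GSDMA 4.34, 0.24 and -0.74 (gap 4.59, SE 0.67, adjusted p = 0.000313). In the other direction the lowest p belonged to CALB2, the calcium-binding protein calretinin, UMPS, of pyrimidine synthesis, and SCD. CALB2 had -0.60, 1.16 and 2.12 (gap -2.24, SE 0.43, adjusted p = 0.0103), so the values of the other lines were the positive ones. UMPS had -0.77, 0.66 and 0.10, and SCD -1.27, 0.09 and 0.18. CALB2 and UMPS are outside the 217.

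**Figure D5:**
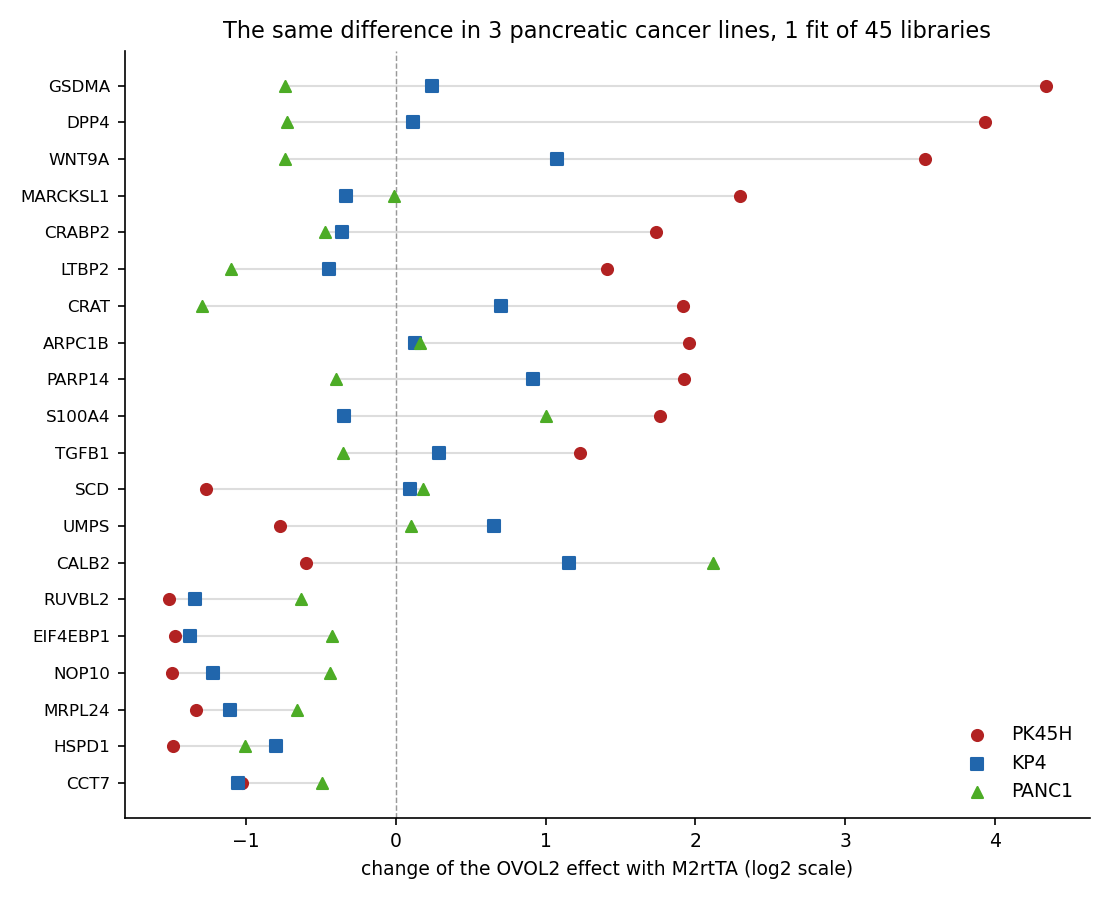
Change of the OVOL2 effect with M2rtTA (horizontal, log2 scale) for 20 genes in PK45H (red circles), KP4 (blue squares) and PANC1 (green triangles), from 1 fit of 45 libraries. From GSDMA down to CALB2 PK45H departs by test from the mean of KP4 and PANC1, which is not a test against each line. In the 6 genes at the bottom, all gained falls, the 3 lines lie on the same side of 0.

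The genes that OVOL2 moves in the other lines whatever the arm were then read in PK45H. Of 69 genes called higher in both arms of both KP4 and PANC1, 26 were called higher in PK45H without M2rtTA and 35 with it. Of all genes tested in PK45H 3.58% and 7.45% were called higher. The median effects of the 69 were 0.61 and 0.98. Of 107 called lower, 69 and 72 were called lower, against 4.81% and 8.4% of all genes, with medians of -1.02 and -0.89. The difference in PK45H, called for 1.6% of all genes, passed upward for 3 of the 69 (PADI2, HLA-C and WNT9A). Of the 107 it passed upward for 10, CRABP2, MARCKSL1, EMP3, CRAT and LIX1L among them, and downward for 3.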

How the data were processed

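The authors deposited a table of raw read counts for 25421 gene symbols in 51 PLATE-seq libraries, and no normalized values were used. Kallisto 0.44.0 and GRCh38 are named per the submitters' processing notes, without a role; how barcodes and molecular identifiers were treated is not given in the sources used here. The 12 transduced PK45H libraries were grouped by their labels. From the deposited counts, edgeR 4.0.16 (R 4.3.3, filterByExpr, TMM scaling, quasi-likelihood test) was fitted to the 15 PK45H libraries in 5 groups, untreated cells included to share the estimate of spread, and p-values were adjusted by Benjamini-Hochberg over 13583 genes with a threshold of 0.05. Comparisons between lines used 1 fit of 45 libraries. The 2 arms have separate controls, but each of the 4 groups enters the difference as well as 2 of the simpler comparisons.

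The members and gene lists were chosen with earlier results of these data known. Genes were named if their difference passed, their mean reached 5 CPM in at least 1 group and no library was 5 times or more above both others: the 6 with the smallest p per class and direction and up to 4 per list, besides 6 anchor genes (OVOL2, VIM, ZEB1, CDH1, EPCAM and ESRP1) and, between lines, 3 per direction. Any other gene is said to be chosen after its values were seen. The scripts were tested on simulated counts. DESeq2 1.42.0, other scalings, filters, spread estimates, thinned libraries, a replicate block, other sets of libraries and the omission of each library were run as alternatives. The values of 1 gene that the naming rule selects are not reported here.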

Additional observations from a re-analysis of the deposited data

Results flagged for a closer look

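The change of the OVOL2 effect with M2rtTA differed between PK45H and the mean of KP4 and PANC1 for 36 genes, by an interaction term in 1 edgeR quasi-likelihood fit of 45 libraries. Each gap below is PK45H minus that mean on the log2 scale, with a Benjamini-Hochberg adjusted p over 14943 genes; the lines have 3 libraries a group. The largest positive gaps among the named genes were those of GSDMA, 4.59 (SE 0.67, adjusted p = 0.000313), the protease DPP4, 4.24 (SE 0.92, adjusted p = 0.031), and the ligand WNT9A, 3.36 (SE 0.70, adjusted p = 0.0204). The actin regulator MARCKSL1 followed with 2.47 (SE 0.27, adjusted p = 9.15e-07), the acetyltransferase CRAT with 2.22 (SE 0.48, adjusted p = 0.031), the matrix protein LTBP2 with 2.18 (SE 0.37, adjusted p = 0.00242) and the retinoic acid carrier CRABP2 with 2.15 (SE 0.26, adjusted p = 5.34e-06).

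Smaller positive gaps were found for ARPC1B of the Arp2/3 complex, 1.81 (SE 0.34, adjusted p = 0.00651), for PARP14, 1.66 (SE 0.38, adjusted p = 0.0473), for S100A4, 1.43 (SE 0.29, adjusted p = 0.0147), and for TGFB1, 1.26 (SE 0.22, adjusted p = 0.00287). In S100A4 the values of the other lines lay on both sides of 0, at -0.34 in KP4 and 1.01 in PANC1. Negative gaps were those of CALB2, -2.24 (SE 0.43, adjusted p = 0.0103), SCD, -1.40 (SE 0.29, adjusted p = 0.0179), and UMPS, -1.15 (SE 0.24, adjusted p = 0.0179). In the fit of PK45H alone the differences of CALB2, -0.56, and UMPS, -0.73, did not pass the threshold. Of the 36 genes 6 had 1 library far above the others of its group and are not named here.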

How the results depend on the processing

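All 217 differences kept their sign in every alternative in which they were tested. The alternatives refit the counts that selected the 217, so the kept signs are no independent support. The number of calls moved more. Taking replicate number as a block gave 116 changed genes, thinned libraries 130, DESeq2 503, the 12 compared libraries alone 128 and 1 fit of 51 libraries 338, sharing 115, 113, 213, 121 and 162 genes with the 217. In the same order the gained genes numbered 61, 74, 260, 72 and 191, the lost genes 28, 28, 129, 26 and 89, and the unclassed genes 0, 1, 41, 0 and 26. DESeq2 gave 27 reversed, 29 stronger and 17 weaker genes; weaker genes were 5 in thinned libraries and 5 in the 12 libraries alone. Without a low-count filter 8 genes were reversed, 5 stronger and 2 unclassed, a filter on the mean count left 2 unclassed, and a robust spread gave 17 stronger and 7 unclassed.

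In the 12 libraries alone, OVOL2 changed 628 genes without and 1424 with M2rtTA, and M2rtTA changed 910 genes among OVOL2 libraries and 1 among mCherry libraries. The last count was 75 by DESeq2 and 28 in the fit of 51 libraries. DESeq2 gave 120 genes that differed between lines. Leaving out 1 library at a time gave 93 to 272 changed genes, 701 to 1173 and 1387 to 2193 OVOL2 effects without and with M2rtTA, 1010 to 1888 and 2 to 18 M2rtTA changes among OVOL2 and mCherry libraries, and 24 to 66 differences between lines. The classes ranged over 49 to 156 gained, 20 to 68 lost, 9 to 18 reversed, 4 to 11 stronger, 5 to 8 weaker and 0 to 13 unclassed. The difference of EPCAM turned negative without a filter (-0.0534), in thinned libraries (-0.0664) and in the fit of 51 libraries (-0.0058), and ranged from -0.1803 to 0.1339 over the omissions of a library, being negative without mCherry replicate 2 or mCherry + M2rtTA replicate 3. The causes were not tested.

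Replicate numbers did not pair the libraries: of 18 same-numbered pairs 0 had deviations correlated above 0.1 (-0.153 to 0.062). Of 69 named genes that passed, 39 kept their call in every alternative and 54 with the replicate block. Genes at a few counts, such as OVOL2, C1QTNF1 and DPP4, are limited by depth.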
